A study of Homo sapiens with 8 samples.

Results

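Expression was measured in 4 established human prostate cell lines with 1 Illumina HumanHT-12 beadchip array per line. The lines were DU145, LNCaP-FGC and PC3, which the labels name as prostate cancer lines, and RWPE-1, which they name as the control normal line. The probes described here were those at which LNCaP-FGC stood at least 2 above each of the other 3 lines in the authors' normalized log2 table, a difference of at least 4-fold. This rule was met by 211 of 48803 probes (0.432%). The members were chosen by the deposited log2 levels themselves, so their excess in LNCaP-FGC is a description of the choice and carries no test. No treatment or time point was given for any line, and no line had a repeat array, so no value below has a replicate error and no p-value was computed.

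LNCaP-FGC is a fast-growing colony clone of LNCaP, which was grown from a lymph node metastasis of prostate carcinoma. It keeps the androgen receptor, a steroid-activated transcription factor, and is known for growing in response to androgen and for secreting prostate-specific antigen. DU145 and PC3 were grown from metastases in brain and bone and proliferate without androgen, and both are known for having little or no androgen receptor. RWPE-1 came from the epithelium of a prostate without cancer and was immortalized by papillomavirus. Each is 1 line, so a difference between lines cannot be told apart from a difference between the disease states or the androgen responses that they stand for. In total RNA of a culture, fewer expressing cells and less RNA per cell cannot be told apart either.

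The tables analysed here pair no probe with a gene. Of the 211 members, 0 were found by identifier in the tables of gene names and promoters at hand, so no member is given a gene, a role, a position or a sequence, and the labelled cell types were not checked against marker genes. Several members may be probes of 1 gene, so the number of probes is not a number of genes. The match between normalized and raw columns was checked through the levels, which cannot show which cell line an array was hybridised with. The normalized column of each line correlated across all 48803 probes with the log2 raw intensity of the same line at r of 0.9993 to 0.9999, and with that of any other line at 0.923 at most. These correlations are across probes of single arrays, and probes are not independent replicates.

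The 211 members ranged in level in LNCaP-FGC from a few times the array's typical probe to near its brightest. Their log2 level in LNCaP-FGC was 9.30 at the lowest, 11.12 at the median and 15.54 at the highest. In DU145 the same probes had a lowest level of 6.90, a median of 7.44 and a highest level of 13.30. In PC3 the values were 6.90, 7.52 and 12.59, and in RWPE-1 they were 6.80, 7.44 and 12.70. The median of all probes was 7.37 in every line, so the typical member lay close to the median probe in each of the other 3 lines.

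Raw intensities gave the same picture before any normalization. The median probe of the array had a raw intensity of 182 in LNCaP-FGC, 178 in DU145, 154 in PC3 and 151 in RWPE-1, and each member was set against the median probe of its own array. In LNCaP-FGC the members stood at 3.47 to 277 times the median probe, with a median of 12.5 times. Their median was 1.04 times the median probe in DU145, 1.11 times in PC3 and 1.05 times in RWPE-1. The members did not lie at that level alone in the other lines. Their highest values were 66.0 times the median probe in DU145, 47.3 times in PC3 and 33.1 times in RWPE-1. The raw intensity in LNCaP-FGC was 3.75 to 173 times that of the brightest of the other 3 arrays, with a median ratio of 6.77.

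All 211 members exceeded 2 times the median probe in LNCaP-FGC, where 20.8% of all probes did so. In DU145 and RWPE-1 the share of members past that level lay near the share of all probes, and in PC3 it lay above it. The level was passed at 50 members (23.7%) in DU145 against 20.9% of all probes, at 62 members (29.4%) in PC3 against 22.8%, and at 48 members (22.7%) in RWPE-1 against 22.2%. At or below the median probe lay 88 members (41.7%) in DU145, 81 (38.4%) in PC3 and 91 (43.1%) in RWPE-1. Above 8 times the median probe were 144 members (68.2%) in LNCaP-FGC, against 12 in DU145, 14 in PC3 and 6 in RWPE-1. In the other lines these were 5.69%, 6.64% and 2.84% of the members, below the 8.86%, 10.0% and 8.49% of all probes that passed that level there. In LNCaP-FGC 8.53% of all probes did. The rule caps the level that a member can have in the other lines, so these shares are read only as a description.

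The excess of LNCaP-FGC over the next highest line, called the margin here, was mostly near the threshold, with a long upper tail. On the log2 scale it had a median of 2.72, with quartiles of 2.32 and 3.38 and a highest value of 7.32. Margins from 2 to under 3 were found at 130 members (61.6%) and from 3 to under 4 at 52 (24.6%). The remaining 29 members had a margin of at least 4, of which 14 were below 5, 7 from 5 to under 6, and 8 at 6 or more. Over all probes the median margin was -0.14, and LNCaP-FGC was the highest line at 25.5% of probes.

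Probe ILMN_1674097 had the largest margin, 7.32. Its log2 level was 14.63 in LNCaP-FGC, 7.18 in DU145, 7.31 in PC3 and 7.18 in RWPE-1. Its raw intensity was 27151 in LNCaP-FGC, 157 in DU145, 148 in PC3 and 134 in RWPE-1. It therefore stood at 149 times the median probe in LNCaP-FGC and below the median probe, at 0.880, 0.956 and 0.884 times, in DU145, PC3 and RWPE-1. Probe ILMN_2233576 followed with a margin of 7.13, from log2 levels of 14.72 in LNCaP-FGC, 7.2 in DU145, 7.59 in PC3 and 7.17 in RWPE-1. Its raw intensities were 28848, 159, 180 and 133 in the same order of lines, so it was below the median probe in DU145 and RWPE-1 and at 1.17 times the median probe in PC3. At both probes the other 3 lines lay near the typical signal of their arrays, on which the lowest raw intensity of any probe was 104 in DU145, 92.3 in PC3 and 93.9 in RWPE-1.

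These 2 probes belonged to a group of 7 at the top of the ranking, whose margins of 6.82 to 7.32 were followed by a gap down to 6.02. The gap was noticed after the values were seen. The 7 probes had similar levels on each array. They were picked by margin, and with the other lines near the median probe this largely sets the level in LNCaP-FGC. The likeness is therefore only a description. Their raw intensity ran from 23912 to 31193 in LNCaP-FGC, from 143 to 183 in DU145, from 148 to 196 in PC3 and from 129 to 162 in RWPE-1. In multiples of the median probe they lay between 131 and 171 in LNCaP-FGC, and between 0.800 and 1.27 in the other 3 lines. Whether the 7 probes report 1 gene or several was not tested, since none was paired with a gene.

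The members fell into classes by the lines other than LNCaP-FGC in which they also passed 2 times the median probe. At 130 members (61.6%) no other line did, and LNCaP-FGC alone was above that level. At 31 members 1 other line did, at 21 members 2 others did, and at 29 members (13.7%) all 3 did. Over all probes, none of the other 3 lines passed that level at 72.4% and all 3 did at 16.7%. Both shares were larger than those of the members. These classes were drawn from the same arrays as the rule and were chosen after the values were seen.

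The classes cut on the levels that the rule and the margin also use. In naming them, signal in a line means only a level past 2 times the median probe of its array, not detection. A member with signal in another line had to stand at about 8 times the median probe or more in LNCaP-FGC to qualify, and the margin is counted from the highest of the same levels, so the levels and margins of the classes are given as a description of the choice. For the other 81 members the median level in LNCaP-FGC was 24.6 times the median probe. It was 7.99 times for the 130 members that passed 2 times the median probe in LNCaP-FGC alone. Their median margin was 2.925 on the log2 scale, with 61 of 130 (46.9%) at 3 or more, against a median of 2.45 and 20 of 81 (24.7%) for the rest. Of the 29 members with a margin of at least 4, 24 were in this class, as were all 8 with a margin of at least 6. In this class the median levels in the other 3 lines were 0.953 times the median probe in DU145, 0.971 times in PC3 and 0.935 times in RWPE-1. The highest levels there were 1.83 times in DU145, 1.98 times in PC3 and 1.95 times in RWPE-1, so some members lay well above the median probe. A subset of 50 members (23.7%) did not exceed the median probe on any of the 3 other arrays. Their margins ran from 2 to 7.32 with a median of 2.995. The same share over all probes is not given here, so this count is only a description.

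The 29 members with signal in all 4 lines had a median of 43.7 times the median probe in LNCaP-FGC, with a lowest value of 13.9 times. They stood at medians of 6.55 times in DU145, 5.92 times in PC3 and 4.65 times in RWPE-1. Their median margin was 2.29, the widest was 3.61, and 4 of the 29 reached 3. The brightest member of all in LNCaP-FGC, at 277 times the median probe, was in this class. At these probes LNCaP-FGC differed in degree, with signal past 2 times the median probe in every line. Some passed it narrowly, with lowest values of 2.34 times in DU145, 2.04 times in PC3 and 2.19 times in RWPE-1.

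Smaller classes had signal in 1 or 2 of the other lines. Signal in 1 other line alone was found at 14 members (6.64%) for PC3, where 2.20% of all probes had signal in PC3 and in neither DU145 nor RWPE-1. It was found at 9 members (4.27%) for DU145 against 1.26% of all probes, and at 8 (3.79%) for RWPE-1 against 2.62%. Signal in a pair of other lines was found at 10 members (4.74%) for DU145 and PC3 against 2.01% of all probes. The other pairs were PC3 and RWPE-1, with 9 members (4.27%) against 1.92%, and DU145 and RWPE-1, with 2 members (0.948%) against 0.971%. Over all probes, 72.4% had signal in none of these 3 lines and 16.7% in all 3. PC3 was also the array with the largest share of all probes above 2 times its median. The 14 members shared with PC3 alone included the highest PC3 level in the set, at 47.3 times the median probe of PC3. Where DU145 and PC3 both had signal and RWPE-1 did not, the median margin was 3.42, the widest of the classes named here, with medians of 34.6 times the median probe in LNCaP-FGC, 2.76 times in DU145, 2.96 times in PC3 and 1.06 times in RWPE-1. The 2 members shared with DU145 and RWPE-1 had margins of 2.37 and 2.66. With classes of 2 to 14 probes and 1 array per line, their order was not tested.

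The 3 other lines lay within 2-fold of one another at most members, but at a smaller share of members than of all probes. The range from the lowest to the highest of DU145, PC3 and RWPE-1 had a median of 0.42 on the log2 scale, against 0.27 over all probes. It was below 1 at 156 members (73.9%), against 83.1% of all probes. It reached 2 or more at 11 members (5.21%), against 4.73% of all probes. The widest range was 5.35, at a member with log2 levels of 14.82 in LNCaP-FGC and 12.59 in PC3 but 7.24 in DU145 and 7.31 in RWPE-1. The next widest was 4.88, again with PC3 as the high line, from 15.06 in LNCaP-FGC and 12.28 in PC3 against 8.28 in DU145 and 7.40 in RWPE-1. Raw intensities at the first of these were 31136, 7298, 164 and 145 in LNCaP-FGC, PC3, DU145 and RWPE-1, so both LNCaP-FGC and PC3 were far above the typical probe and the other pair was not.

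DU145 was the next highest line at 81 members (38.4%), PC3 at 73 (34.6%) and RWPE-1 at 57 (27.0%). The same shares over all probes are not given here. The 3 lines differed by as little as 0.02 on the log2 scale at a member, so these counts are only a description. Over the members, LNCaP-FGC exceeded DU145 by a median of 3.14 on the log2 scale, PC3 by 3.05 and RWPE-1 by 3.12. Differences of at least 4 were found at 48 members against DU145, 44 against PC3 and 52 against RWPE-1. Between the other lines, PC3 was at least 2-fold above RWPE-1 at 21 members and below it at 8, where 5.35% and 5.43% of all probes differed in those directions. PC3 was at least 2-fold above DU145 at 15 members and below it at 9 (3.78% and 3.67% of all probes). DU145 was above RWPE-1 at 19 members and below it at 17 (5.35% and 5.41% of all probes). In each pair these 2-fold differences were found at a larger share of members than of all probes. The shares were 11.4% against 7.45% between DU145 and PC3. Between DU145 and RWPE-1 they were 17.1% against 10.8%, and between RWPE-1 and PC3 13.7% against 10.8%. None of these 3 lines passed 2 times the median probe at 61.6% of members, against 72.4% of all probes. Whether the larger shares, or the wider range of the 3 lines given above, follow from this was not tested.

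The threshold did not separate the members from a distinct population below it. The margins of 15 members lay from 2 to under 2.1, and 25 probes lay from 1.9 to under 2. The 6 members just inside comprised 3 with a margin of exactly 2 and 3 of 2.02, and the 6 probes just outside comprised 2 with 1.99 and 4 with 1.98. Raw intensities in LNCaP-FGC ran from 650 to 2284 inside, with a median of 719, and from 679 to 2493 outside, with a median of 1354. The highest of the other lines stood at 0.979 to 3.26 times the median probe inside and at 1.04 to 3.86 times outside. It passed 2 times the median probe at 2 of the 6 probes on each side, so the ranges on either side of the threshold overlapped.

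LNCaP-FGC was at least 4-fold above DU145 at 459 probes (0.941%), above PC3 at 509 (1.04%) and above RWPE-1 at 606 (1.24%). The 211 members are the probes common to these 3 lists, which share the LNCaP-FGC array, and they made up 46.0%, 41.5% and 34.8% of them. When DU145 was left out of the rule, 288 probes qualified, and 271 and 276 did so without PC3 and without RWPE-1. Of the 77 gained without DU145, 61 (79.2%) were above 2 times the median probe in DU145, against 20.9% of all probes. In PC3 the number was 48 of the 60 gained without it (80.0%, against 22.8%), and in RWPE-1 57 of 65 (87.7%, against 22.2%). A probe is gained only where the left-out line is less than 4-fold below LNCaP-FGC, which is itself high there. Such shares largely follow from the choice and are read only as a description. At 29 of the 65 gained without RWPE-1, RWPE-1 was within 2-fold of LNCaP-FGC, against 19 of the 77 where DU145 was left out and 21 of the 60 where PC3 was. RWPE-1 was at least 2-fold above LNCaP-FGC at 3 of its 65, DU145 at 5 of its 77 and PC3 at 0 of its 60.

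The same rule was applied to each line in turn to place the size of the set. RWPE-1 stood at least 4-fold above every other line at 269 probes (0.551%), PC3 at 156 (0.32%) and DU145 at 89 (0.182%). LNCaP-FGC was at least 4-fold below every other line at 172 probes (0.352%). The counts depended on the processing. With normexp background correction and quantile normalization, LNCaP-FGC had 283 such probes, RWPE-1 351, DU145 149 and PC3 222. The order of the lines depended on the scaling. With raw intensities scaled to a common array median, 243 probes qualified in PC3, 226 in RWPE-1, 190 in LNCaP-FGC and 80 in DU145. At a margin of 6 or more LNCaP-FGC had 8 probes, RWPE-1 6, PC3 5 and DU145 2, and at 7 or more the counts were 5, 1, 1 and 0. The widest margin of any line was 8.10, in PC3. The share of probes at which no other line passed 2 times the median probe was 61.6% for LNCaP-FGC, 62.9% for DU145, 58.3% for PC3 and 49.4% for RWPE-1. With 1 array per line none of these differences was tested.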

How the data were processed

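Total RNA of each line was labelled with biotin and hybridised to 1 array, per the labels' protocols. The authors deposited raw probe intensities exported from BeadStudio, per the submitters' processing notes, with no detection p-values beside them. The authors also deposited normalized log2 values, with a median of 7.37 in each column; how they were made is not given in the sources used here. Their equal distributions are those of quantile normalization. All 4 columns of both tables were matched to samples by name. Margins were taken from the log2 table to 2 decimals, and multiples of the median probe from the raw intensities, with Python (version 3.11.15) and pandas (2.3.3). No filter was set on low signal. Alternatives used limma (3.58.1, in R 4.3.3): normexp with an offset of 50 and quantile normalization, quantile normalization alone, and scaling to a common median. The counting rule was tested on simulated data. The number of arrays limits the precision.

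The members and lists were chosen with earlier results of these data known. Probes to name were to be the 25 with the widest margins and members of gene lists; with no gene names, the 2 with the widest margins are given. The methylation arrays, the gene lists, other probes of a member gene and promoter motifs were not used here, since no table paired probes or CpG sites with genes.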

Additional observations from a re-analysis of the deposited data

How the results depend on the processing

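Of the 211 members, all 211 met the rule with normexp and quantile normalization, which gave 283 probes. Background subtraction lowers dim signals by a larger factor than bright ones, which can widen margins. Whether this accounts for the larger count was not tested, since quantile normalization was applied with it. With quantile normalization alone, 207 members met the rule among 214 probes. The deposited levels already had equal distributions, so this was close to a repeat of them. With scaling to a common median, 189 members met it among 190 probes. The median margin of the 211 was 2.72 as deposited and 3.19, 2.75 and 2.61 under these 3 treatments, and all 211 margins stayed above 0. Normexp widened the margin at all 211, from a median of 2.925 to 3.465 where no other line passed 2 times the median probe and from 2.29 to 2.40 where all 3 did. A threshold of 1 gave 714 probes and a threshold of 3 gave 81. Leaving out 1 other line gave 271 to 288. A minimum of 2 times the median probe in LNCaP-FGC could remove no member, since the lowest member stood at 3.47 times there. At least 1 other line was above the median probe at 161 members and above the 75th percentile probe at 87. For levels of 2, 4 and 8 times the median probe, chosen after seeing the data, the numbers were 81, 38 and 18. At 2 times, no other line passed at 61.6% of members, against 72.4% of all probes. The shares over all probes at the other levels are not given here, so those counts are only a description. Alternatives for the other lines were also added after seeing the data. Probes higher in DU145 rose from 89 to 149 with normexp, and those higher in PC3 from 156 to 243 with median scaling; the causes were not tested. No paired analysis was possible because each line had 1 array. Counting 1 probe per gene, other probes of a gene and methylation by gene were not run, since no probe or site was paired with a gene. Low signals have no detection p-values here, so differences at probes near the median probe are limited by the floor of each array.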
